A study of Mus musculus with 3 samples.

Results

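Type I interferon-stimulated genes were followed in follicular T cells of the mouse spleen, cell by cell and subcluster by subcluster. The set was a list, chosen with earlier results of these data known, of 47 genes given by name. Of these, 46 were matched by symbol among the 32285 genes of the matrices, and Mx1 was not analysed here. The study compared wild-type mice (WT) with mice carrying a Siglec-G knockout in B cells (BKO), where Siglec-G, a sialic acid-binding receptor, dampens signalling of B cells. All mice were immunised with an OVA-liposome, and spleens were taken on day 14. Follicular helper (Tfh) cells, which give help to germinal centre B cells, and follicular regulatory (Tfr) cells, Foxp3-expressing T cells that hold this help in check, were sorted and run on the 10x 3′ assay, which counts RNA molecules by unique molecular identifiers (UMIs). The knockout is labelled as one of B cells, while the cells measured are T cells. The targeted gene Siglecg, with 0 to 4 UMIs per class and sample, therefore cannot check the labels. The strain, the age, the number of animals pooled and the Cre driver of the B cell knockout are not given in the sources used here. There are 3 deposited samples, WT replicate 1 and BKO of batch 1 and WT replicate 2 of batch 2.

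Type I interferons are secreted when cells sense viral RNA or foreign DNA, and they bind a receptor made of IFNAR1 and IFNAR2. The kinases JAK1 and TYK2 then activate the complex ISGF3, which contains STAT2 and IRF9. ISGF3 binds the interferon-stimulated response element (ISRE) in promoters and switches on a broad antiviral set: sensors, RNA-binding blockers of translation, ubiquitin-like ISG15, nucleases and inhibitors of virus release. In T cells this response is known to shape differentiation, and small interferon-responding subsets are commonly seen in single-cell data of T cells.

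Both WT samples come from the same cells. Each of the 5554 barcodes in WT replicate 1 recurred among the 5721 in WT replicate 2, and the UMI totals of shared barcodes correlated with r = 0.997. They are therefore 1 library sequenced in 2 runs, called WT run 1 and WT run 2 below, while 13 of the 8433 BKO cells carried a barcode of WT run 2. With 1 library per genotype no difference could be tested, and no p-value is given. Intervals cover counting error at 95% only. The authors' tables held 3727 Tfh and 1416 Tfr cells for WT run 1, 3668 and 1449 for WT run 2, and 6389 and 2044 for BKO, with median UMI counts per cell of 4584, 7527 and 6431. A level is given below as UMIs per 1000000 UMIs of the same cells (CPM), always in the order WT run 1, WT run 2 and BKO. Log2 ratios set BKO against the mean of both WT runs on the scale of CPM plus 0.5. To be called higher or lower, a gene needed a mean of 20 CPM or more and a BKO level beyond each WT run by 1.5-fold or more. Per the file headers, cellranger 7.0.1 made the WT counts and Cell Ranger 4 those of BKO. Intronic reads are counted by default in the former and not in the latter.

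The ISRE was looked for in the members' promoters. In RefSeq promoters of build GRCm38.p6, from 250 bases before to 50 after the start, 37 of the 47 members were found. The ISRE core GAAANNGAAA, or TTTCNNTTTC on the other strand, was in 20 of the 37 (54.1%), against 3.99% of 27025 genes in the table. The interferon-gamma element TTCNNNGAA (the same letters on both strands, and free to overlap an ISRE core) was in 7 of 37 (18.9%), against 9.55% of genes. The windows below show the cores, in capitals, of members whose values carry the results that follow. Each runs 5′ to 3′ on the strand of its gene, and the single capital that opens the Ifit3 windows is the last base of another core.
Isg15: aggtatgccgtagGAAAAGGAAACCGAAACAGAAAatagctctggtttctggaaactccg
Ifit1: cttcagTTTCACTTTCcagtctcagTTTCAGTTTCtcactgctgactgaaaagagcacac
Ifit3: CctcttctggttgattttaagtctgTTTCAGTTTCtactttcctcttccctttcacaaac
Ifit3b: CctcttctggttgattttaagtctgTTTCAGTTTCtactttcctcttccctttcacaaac
Rsad2: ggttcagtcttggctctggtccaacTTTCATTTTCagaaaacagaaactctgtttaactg
Bst2: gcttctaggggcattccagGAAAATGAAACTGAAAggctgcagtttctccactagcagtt
Ifi203: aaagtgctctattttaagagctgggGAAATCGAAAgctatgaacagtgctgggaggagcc
Ifi208: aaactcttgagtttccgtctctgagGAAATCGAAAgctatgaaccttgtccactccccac
Ifi213: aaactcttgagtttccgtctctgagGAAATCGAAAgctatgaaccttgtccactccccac
Trim30a: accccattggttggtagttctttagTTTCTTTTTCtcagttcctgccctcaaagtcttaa
Slfn8: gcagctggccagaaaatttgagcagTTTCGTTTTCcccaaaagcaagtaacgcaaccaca
Phf11b: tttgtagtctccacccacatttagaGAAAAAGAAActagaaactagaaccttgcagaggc

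In build GRCm38.p6 the Isg15 window lies at chr4:156200850-156200909 on the minus strand and holds 3 overlapping cores, the nearest starting 66 bases before the transcription start. The Ifit1 window lies at chr19:34640779-34640838 on the plus strand, with 2 cores. Ifit3 (chr19:34583382-34583441, plus) and Ifit3b (chr19:34607778-34607837, plus) are neighbouring copies whose 60 bases here are identical, while their promoters as a whole matched in 258 of 340 aligned positions (75.9%). Ifi208 (chr1:173673582-173673641, plus) and Ifi213 (chr1:173599311-173599370, minus) also share an identical window. Ifi203 (chr1:173942493-173942552, minus) has the same core letters. Rsad2 lies at chr12:26456538-26456597 (minus), Bst2 at chr8:71537562-71537621 (minus), Trim30a at chr7:104465195-104465254 (minus), Slfn8 at chr11:83020824-83020883 (minus) and Phf11b at chr14:59341346-59341405 (minus). A match is a description of the letters and says nothing of binding in these cells.

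The summed member level was by far highest in 1 small subcluster of each class, number 7 of Tfh and number 5 of Tfr in the authors' tables. Most member UMIs still came from the other cells, which are far more numerous. Summed over 46 members, Tfh subcluster 7 reached 20252, 19490 and 20010 CPM, while all other Tfh cells together stood at 3782, 3762 and 3722 CPM. Tfr subcluster 5 reached 23842, 24134 and 24836 CPM, and the other Tfr cells 4791, 4855 and 5406 CPM. The clusters were built from the genes of these same cells, so this contrast is a description. Among the remaining Tfh subclusters the summed level ran from 2442 to 5354 CPM, with subcluster 4 at 5113, 5354 and 5317 CPM and subcluster 6 at 2937, 2936 and 2442 CPM. Tfh subcluster 7 and Tfr subcluster 5 are called interferon-high below. Member RNA was present at a lower level in every other subcluster that held cells.

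**Figure D1:**
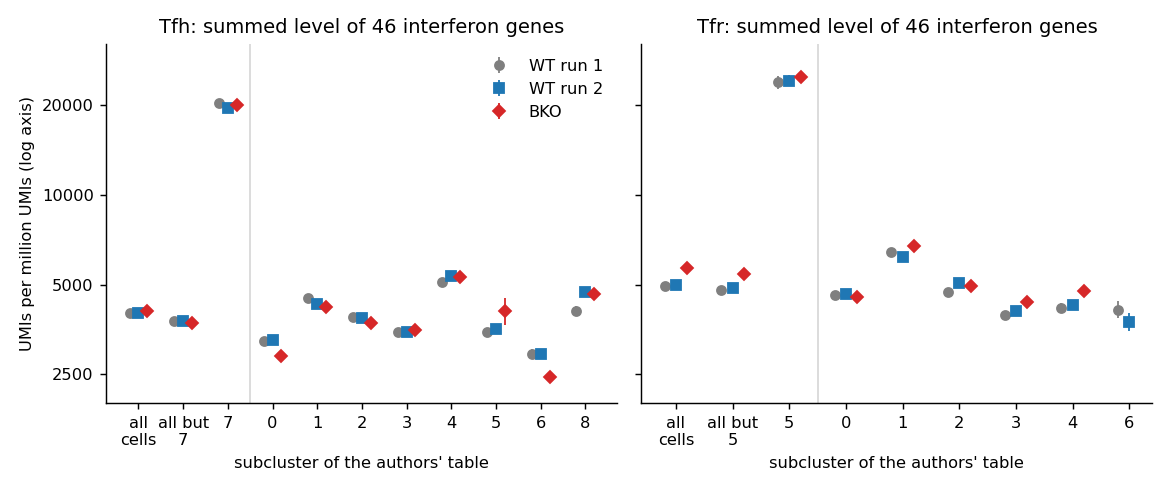
Summed level of the 46 interferon genes (y axis, CPM, log axis) in each subcluster of the authors' tables (x axis) for Tfh and Tfr, with 1 point per sample and bars for the exact Poisson 95% interval. Tfh subcluster 7 and Tfr subcluster 5 stand above all others in each sample, at 19490 to 24836 CPM.

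The cells of the interferon-high subclusters carried markers of follicular T cells. All 5 Tfh markers (Cxcr5, Pdcd1, Icos, Bcl6, Il21) were detected in Tfh subcluster 7, with a summed level of 720, 776 and 843 CPM, and the 4 T cell markers summed to 2792, 2764 and 3336 CPM. In Tfr subcluster 5 the Tfh markers summed to 914, 940 and 715 CPM, so this list did not set the classes apart. The 4 Tfr markers (Foxp3, Il2ra, Ikzf2, Ctla4) summed to 3935, 3791 and 4185 CPM in Tfr subcluster 5. They summed to 3980, 4025 and 4067 CPM in other Tfr cells and to 1433, 1619 and 1519 CPM in Tfh subcluster 7. Foxp3 alone stood at 325, 362 and 268 CPM in Tfr subcluster 5. The B cell markers Cd79a, Cd79b and Ms4a1 were at 0 in Tfr subcluster 5 of all samples and in Tfh subcluster 7 of WT run 1 and BKO, with 2.08 CPM in WT run 2. A count of 0 allows up to 10.6 CPM in Tfh subcluster 7 of WT run 1 and up to 3.08 CPM in that of BKO, and up to 46.5, 29.4 and 13.2 CPM in Tfr subcluster 5. Markers of plasmacytoid dendritic cells, the strongest known source of type I interferon, summed to 3.55, 12.5 and 30.8 CPM in Tfh subcluster 7 and to 36.6, 37.3 and 32.4 CPM in other Tfh cells. Myeloid markers summed to 81.6, 49.96 and 90.5 CPM there, against 88.9, 82.1 and 104 CPM in other Tfh cells. The CD8 T and NK cell list summed to 174, 150 and 35.0 CPM in Tfh subcluster 7 and to 259, 240 and 34.5 CPM in the other Tfh cells, so it was lower in BKO on both sides. Median UMIs per cell were 4651, 7580 and 6559 inside Tfh subcluster 7 and 4411, 7292 and 6237 outside it. The stress and dissociation list summed to 63.9, 68.7 and 13.4 CPM inside and to 24.4, 20.96 and 19.0 CPM outside. Fos was called lower in BKO inside (all genes 10.3%), at 56.8, 54.1 and 6.17 CPM from 16, 26 and 6 UMIs. The part of these lists in the results was not tested.

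A larger share of BKO cells than of WT cells lay in these subclusters. Tfh subcluster 7 held 56 cells in WT run 1 (1.503%, exact interval 1.14 to 1.95%), 57 in WT run 2 (1.55%, 1.18 to 2.01%) and 134 in BKO (2.10%, 1.76 to 2.48%). Tfr subcluster 5 held 11 (0.777%, 0.388 to 1.39%), 12 (0.828%, 0.429 to 1.44%) and 32 cells (1.57%, 1.07 to 2.20%). The BKO share was 1.37 times the WT mean in Tfh and 1.95 times in Tfr, and the intervals overlapped in both classes. Because the WT runs are of the same cells, 51 of the Tfh and 9 of the Tfr cells were in the subcluster in both runs. The share of all member UMIs that came from these cells was 7.56, 7.80 and 10.9% in Tfh and 3.75, 3.64 and 6.51% in Tfr. In sums over cells, more cells of a kind and more RNA per cell cannot be told apart. The level per cell is given next. The subcluster was itself drawn from expression, so the level inside it cannot separate the 2 either.

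Per thinned cell, the BKO interferon-high cells did not hold more member UMIs than those of WT, without the TMM scaling used below. Each cell was thinned to 2500 UMIs, and Ifi27l2a, an interferon-induced gene of high level in all these cells, was left out. The median cell of Tfh subcluster 7 then held 36, 33 and 30 member UMIs, against 5, 4 and 4 in other Tfh cells, over 51, 57 and 133 cells inside and 3482, 3555 and 6190 outside. In Tfr subcluster 5 the medians were 40, 39.5 and 38, over 11, 12 and 32 cells, against 5 in each sample outside. The BKO mean was 0.933 times the WT mean inside Tfh subcluster 7 and 0.911 times outside it, and 1.00 and 1.02 times in Tfr. Few cells outside reached the median of those inside, but the ranges overlapped below it. Of the other Tfh cells 1, 3 and 3 reached the median of subcluster 7. Of the other Tfr cells 1, 0 and 1 reached that of subcluster 5. The inside 5th percentile was reached by 4.85, 2.87 and 1.63% of the other Tfh cells. In both WT runs, but not in BKO, these outnumbered the thinned cells inside. In Tfr the shares were 0.0730, 0.279 and 2.15%. Of the cells inside, 2, 1 and 2 in Tfh and 0, 0 and 1 in Tfr lay below the outside 95th percentile. The median cell of Tfh subcluster 7 showed 21, 21 and 18 of the 46 members, and a Tfr subcluster 5 cell 23, 22 and 21. The 5th to 95th percentiles of member UMIs in Tfh subcluster 7 ran from 12.5 to 81 in WT run 1 and from 15.6 to 73.8 in BKO, so the level graded over the cells of the subcluster. Before thinning, the mean number of member UMIs per cell was 101.9, 164 and 145 in Tfh subcluster 7, Ifi27l2a included, and followed the depth of the samples.

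**Figure D2:**
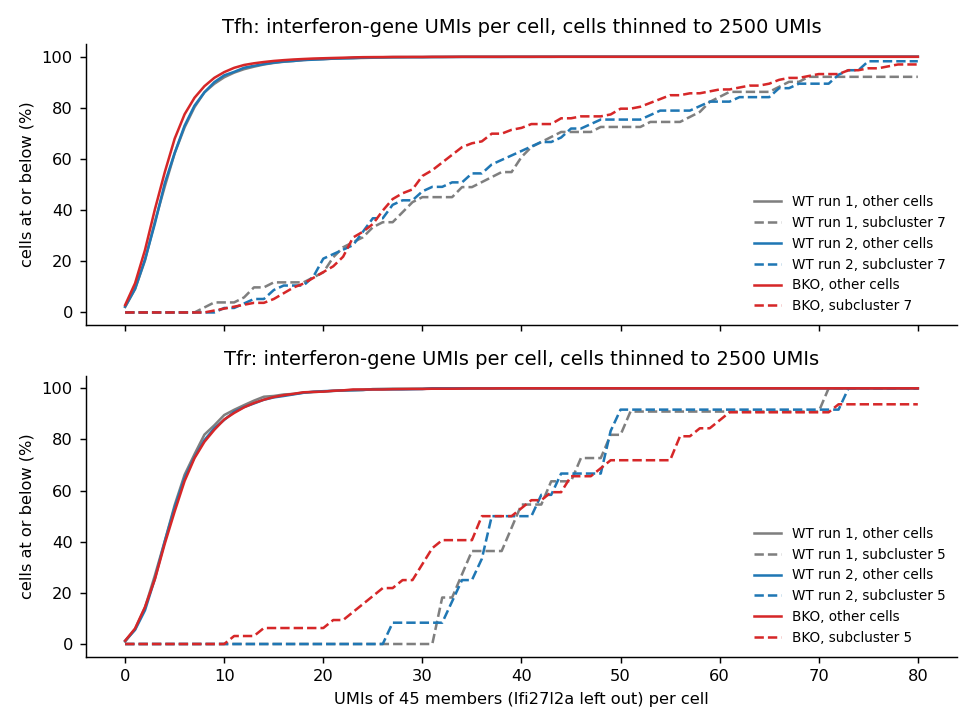
Cumulative share of cells (y axis, %) by the UMIs of 45 members per cell after thinning to 2500 UMIs (x axis, Ifi27l2a left out), inside and outside the interferon-high subcluster, for Tfh and Tfr and for each sample. The 3 samples run close together on both sides, with medians of 30 to 40 UMIs inside and 4 or 5 outside.

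Across whole classes the summed member level was close to WT in BKO Tfh and higher in BKO Tfr. All Tfh cells stood at 4029, 4015 and 4084 CPM, a log2 ratio of 0.02, and Tfh outside subcluster 7 had a log2 ratio of -0.02. All Tfr cells stood at 4939, 5000 and 5696 CPM, a log2 ratio of 0.20, and Tfr outside subcluster 5 had 0.16. With library sizes scaled by TMM the ratios of all cells were 0.18 in Tfh and 0.31 in Tfr. Both values in Tfr were smaller without Ifi27l2a and at an equal make-up of subclusters. Without Ifi27l2a the Tfr levels were 2506, 2521 and 2674 CPM (0.09), and outside subcluster 5 they were 2393, 2411 and 2460 CPM (0.03). Tfr subcluster 1, where members stood at 6429, 6174 and 6723 CPM, held 16.2, 17.1 and 36.3% of cells, and Tfr subcluster 0, at 4627, 4656 and 4525 CPM, held 39.1, 40.0 and 15.4%. With each subcluster given its WT share of UMIs, all Tfr cells stood at 4963, 5024 and 5128 CPM, a log2 ratio of 0.04. This alternative was chosen after seeing the data.

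Ifi27l2a, which encodes a small interferon-induced membrane protein, supplied more member UMIs than any other member. It made up 43.0, 43.4 and 46.4% of member UMIs in Tfh and 49.3, 49.6 and 53.1% in Tfr. Its level was 1732, 1743 and 1896 CPM in Tfh (log2 ratio 0.13) and 2432, 2480 and 3022 CPM in Tfr (0.30), and BKO was above both WT runs in each class. In Tfr subcluster 1 Ifi27l2a stood at 3512, 3340 and 3781 CPM and in Tfr subcluster 0 at 2070, 2101 and 2002 CPM. At the WT make-up of subclusters, leaving out the interferon-high one, its log2 ratio was 0.07 in Tfr and -0.08 in Tfh. Like Irf1 and Irf9 it was little tied to subcluster 7, with 4.29, 4.58 and 6.86% of its Tfh UMIs there.

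The members differed widely in how far they were confined to the interferon-high cells. Within Tfh 44, 45 and 46 of 46 members had their highest level in subcluster 7, and within Tfr 45, 44 and 46 had it in subcluster 5. The median member had 10.0, 10.3 and 15.1% of its Tfh UMIs and 5.45, 5.48 and 9.67% of its Tfr UMIs there, and its level was 7.28, 7.07 and 7.84 times that of the other Tfh cells. Ifit3, an RNA-binding partner of IFIT1, was among the most concentrated members, with 60.9, 60.1 and 76.1% of Tfh UMIs in subcluster 7, from 138, 228 and 435 UMIs. Its copy Ifit3b had 56.1, 57.0 and 82.1%, from 41, 79 and 162 UMIs. Rsad2, the radical-SAM enzyme viperin, had 50.2, 48.6 and 49.0%, and Ifit1, which binds viral RNA at its 5′ end, had 45.9, 44.3 and 55.6%. Ifit3, Ifit3b and Rsad2 are named after their values were seen. At the other end stood Irf9 with 4.19, 3.92 and 5.49% and Irf1 with 2.36, 2.29 and 4.22%. Irf1, which interferon-gamma and T cell receptor signals also induce, was higher in Tfh subcluster 5 of WT, at 199 and 182 CPM, than in subcluster 7, at 135 and 114 CPM. The order of members was much alike in the samples and classes, with Spearman correlations in Tfh of 0.967 between WT run 1 and BKO over 45 members and of 0.975 between WT run 2 and BKO over 46, as a description across genes that are not independent.

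Members with an ISRE core in the promoter window stood somewhat higher in the ratio of inside to outside. Their median ratio in Tfh was 7.75, 8.22 and 8.51 over 20 members, against 6.42, 6.18 and 5.86 over the 17 with a promoter but no core. In Tfr the medians were 7.37, 8.16 and 8.82 against 6.76, 7.31 and 5.89. The ranges overlapped in part, from 4.60 to 101.8 with a core and from 1.58 to 31.9 without one in Tfh of WT run 1, where Ifit1, Ifit3, Ifit3b and Rsad2, each with a core, lay above every member without one. The pairs of members with identical windows printed above were Ifit3 with Ifit3b and Ifi208 with Ifi213.

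**Figure D3:**
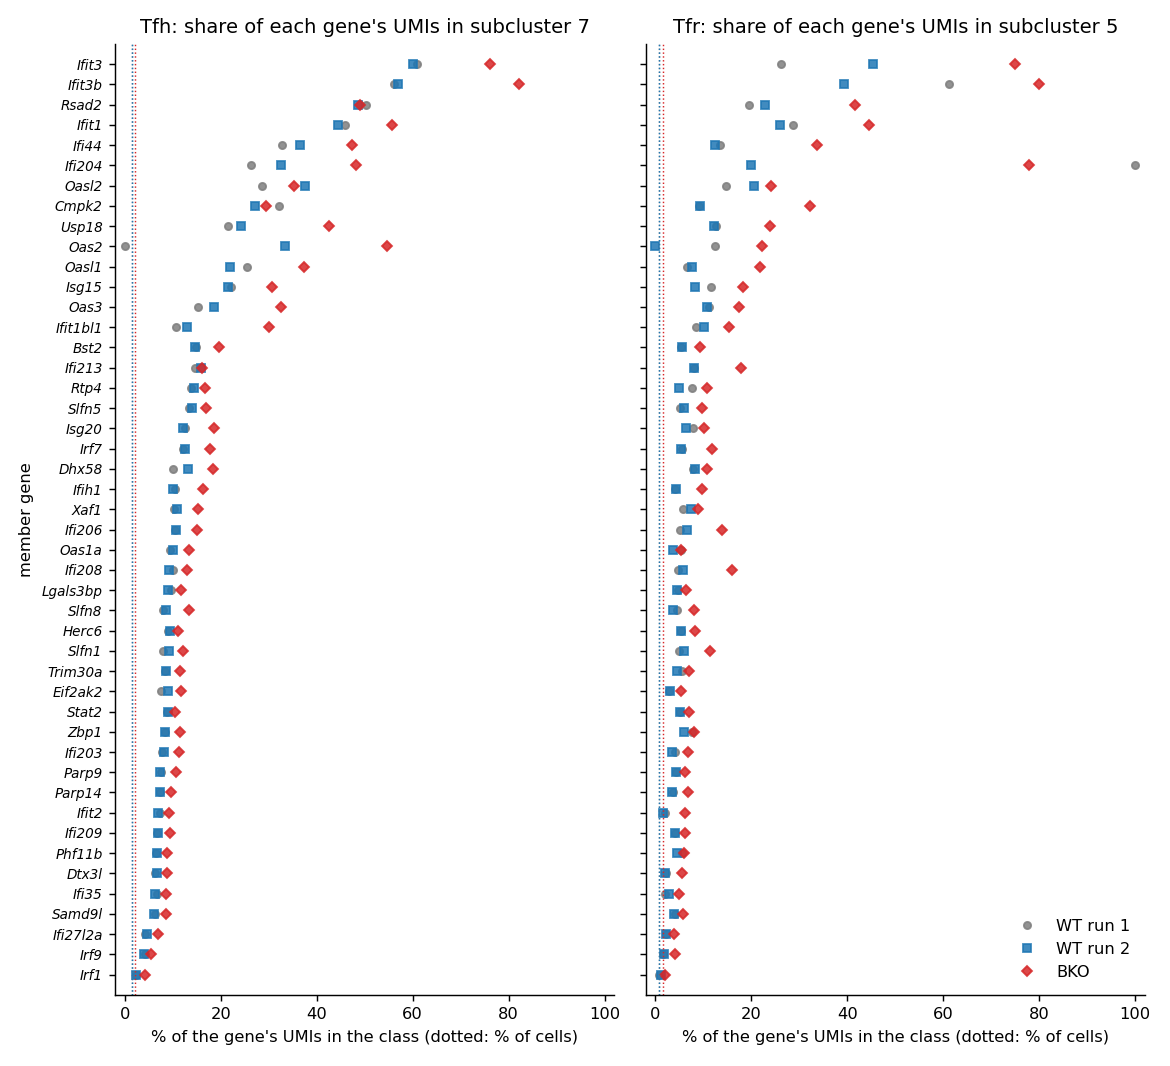
Share of each member's UMIs in the class that came from the interferon-high subcluster (x axis, %, dotted lines for the share of cells) for Tfh subcluster 7 and Tfr subcluster 5, with 1 point per sample and genes in rows. Ifit3 and Ifit3b lie above 56% and Irf1 below 4.3% in Tfh.

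Gene by gene, no member was called higher in BKO in Tfh or Tfr as a whole. In Tfh 32 of 46 members passed the minimum of 20 CPM, with 0 called higher and 0 lower, 13 log2 ratios above 0, 19 below, and a range from -0.57 to 0.37. Their median log2 ratio was -0.07, against -0.10 for all 6559 genes past the minimum, of which 0.396% were called higher and 2.45% lower. Of these genes 4152 had ratios below 0. In Tfr 34 members passed, with 0 higher and 1 lower, 19 ratios above 0 and 15 below, and a median of 0.08 against -0.09 for 6539 genes, of which 0.887% were called higher and 2.4% lower. Ratios were below 0 for 4027 of these genes. Outside Tfh subcluster 7, 31 passed with 0 higher and 1 lower (all genes 0.381% and 2.62%), and outside Tfr subcluster 5, 32 passed with 0 higher and 1 lower (0.873% and 2.42%). Inside Tfh subcluster 7, 45 passed with 1 higher and 2 lower, where 3.46% of all genes were called higher and 10.3% lower. Inside Tfr subcluster 5, 44 passed with 5 higher and 3 lower, where 11.2% and 19.7% of all genes were called. With library sizes scaled by TMM, which raised all ratios by 0.16 in Tfh and 0.12 in Tfr, 20 of 32 members were above 0 in Tfh and 26 of 34 in Tfr, and the calls of all genes split as 63 higher and 83 lower in Tfh and 104 and 74 in Tfr, against 26 and 161, and 58 and 157. Under TMM Irf1 and Isg15 were called higher in Tfr and the lower call of Ifi208 was lost. Without WT run 1 Slfn8 was called lower in Tfh (all genes 2.54%), and without WT run 2 Ifit1 was called higher in Tfr (all genes 1.46%). Few members were called, as few of all genes were, and the members that passed the minimum are not all members.

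Of the transcription factors of the module, Irf1 and Irf9 had ratios nearer to 0 in Tfh than in Tfr, and Irf7 did not. Stat2 was about as far from 0 in both, at -0.11 in Tfh and 0.12 in Tfr. With the intron length trend described below taken off, Irf9 was at -0.27 in Tfh and -0.018 in Tfr. The difference between the classes was not tested. Irf7, which amplifies type I interferon production, stood at 23.8, 22.3 and 29.9 CPM in Tfh (log2 ratio 0.37) and at 23.7, 26.4 and 29.9 CPM in Tfr (0.25). Irf9, the DNA-binding part of ISGF3, stood at 54.8, 53.7 and 50.8 CPM in Tfh and at 58.4, 61.0 and 67.2 CPM in Tfr, below both WT runs in BKO Tfh and above both in BKO Tfr. Irf1 stood at 85.9, 80.4 and 85.1 CPM in Tfh (0.03) and at 89.9, 87.6 and 130 CPM in Tfr (0.55). Its BKO interval in Tfr, 125 to 136 CPM, did not meet the WT intervals. The share of all genes with such a gap was not counted, so the gap is not read as a result. All 4 factors, Stat2 among them, had ratios above 0 in Tfr, and 2 of 4 in Tfh (4 of 4 under TMM). Of all genes past the minimum, 2512 of 6539 had ratios above 0 in Tfr and 2407 of 6559 in Tfh. The gap of Irf1 in Tfr was not called, since BKO was under 1.5 times the WT runs.

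Irf1 was higher in BKO across the Tfr subclusters and not only in the sum. Its levels were 83.0, 78.9 and 109 CPM in Tfr subcluster 0, 115, 111 and 170 CPM in subcluster 1, and 80.5, 86.7 and 98.3 CPM in subcluster 2. They were 75.2, 72.7 and 110 CPM in subcluster 3 and 56.9, 70.9 and 116 CPM in subcluster 4. BKO lay above both WT runs in each of these 5, which are the subclusters besides the interferon-high one with at least 50 cells in each sample. In Tfh, BKO Irf1 lay above both runs in 5 of 6 such subclusters, and the log2 ratio at the WT make-up of these was 0.27, while that of all Tfh cells was 0.03. Tfh subcluster 5, where WT Irf1 was highest, held 9.63 and 9.90% of WT but 0.172% of BKO Tfh cells.

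Within the same subclusters some other members lay on 1 side throughout. In Tfr, of 34 members past the minimum, Irf1 and Phf11b were above both WT runs in 5 of 5 subclusters, and Herc6, Ifi208, Ifi213 and Trim30a were below both. Over all 6539 genes past the minimum in Tfr, 6.77% were above both runs and 14.8% below both in every one of these subclusters. In Tfh, of 32 members, 0 were above both runs in 6 of 6 subclusters, and Ifih1, Herc6 and Slfn8 were below both, against 4.41% and 13% of 6559 genes. The cells of 1 library share their source, so the number of subclusters is no number of replicates, and this count was chosen after seeing the data.

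The sensors of RNA and DNA had little in common. Ifih1, which encodes the sensor of long double-stranded RNA MDA5, stood at 43.1, 42.4 and 33.2 CPM in Tfh (-0.36) and at 44.3, 43.3 and 41.2 CPM in Tfr (-0.09). Zbp1, a sensor of Z-form nucleic acid, stood at 59.3, 60.6 and 65.2 CPM in Tfh (0.12) and at 59.7, 56.7 and 78.4 CPM in Tfr (0.43). BKO was below both WT runs for Ifih1 and above both for Zbp1 in each class, although Ifih1 in Tfr was at 0.027 under TMM and at 0.11 with the intron length trend described below taken off. Dhx58 stayed under the minimum.

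In the ISG15 system, Isg15 and its ligase had ratios of opposite sign. Isg15, the ubiquitin-like modifier, stood at 75.5, 72.8 and 92.4 CPM in Tfh (0.32) and at 78.8, 81.3 and 117 CPM in Tfr (0.55). Outside the interferon-high subclusters its log2 ratios were 0.15 in Tfh and 0.42 in Tfr, nearer to 0 than in all cells. Herc6, the main ligase for ISG15 in mice, stood at 83.7, 83.6 and 60.6 CPM in Tfh (-0.46) and at 83.5, 85.6 and 64.7 CPM in Tfr (-0.38). With the intron length trend off the ratios of Herc6 were -0.18 in Tfh and -0.089 in Tfr, and those of Isg15 0.13 and 0.36. Of the 3′ runs of Herc6 23.7% are shared with Gm45193, so its count is uncertain. Inside Tfh subcluster 7 Herc6 was called lower (all genes 10.3%), at 497, 487 and 303 CPM, while Isg15 was at 1114, 978 and 1277 CPM there. Usp18, which removes ISG15 and dampens the receptor, was under the minimum in Tfh and had a log2 ratio of 0.16 in Tfr.

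Of the IFIT family, whose 5 members lie side by side on chromosome 19 (GRCm38, 34550694 to 34650009), only Ifit1 and Ifit2 passed the minimum. Ifit1 stood at 25.2, 24.7 and 29.6 CPM in Tfh (0.24) and at 21.8, 26.4 and 34.3 CPM in Tfr (0.50). Outside the interferon-high subclusters it was at 13.9, 14.0 and 13.4 CPM in Tfh and at 15.6, 19.7 and 19.3 CPM in Tfr, where BKO did not exceed both WT runs. Ifit2, which also binds RNA, stood at 22.7, 22.9 and 19.5 CPM in Tfh (-0.22) and at 24.8, 23.0 and 22.3 CPM in Tfr (-0.10). Ifit3, named here after its values were seen, was at 2.93, 3.09 and 2.43 CPM outside Tfh subcluster 7 and at 298, 285 and 340 CPM inside. The 3′ end of Ifit3 shares sequence with Ifit3b, so reads may be split between them.

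Among the nucleases and translation blockers, Eif2ak2 and Isg20 went opposite ways. Eif2ak2, which encodes the kinase PKR, stood at 58.6, 51.4 and 42.9 CPM in Tfh (-0.35) and at 96.2, 92.7 and 77.4 CPM in Tfr (-0.29). Isg20, an exonuclease, stood at 49.4, 45.1 and 57.5 CPM in Tfh (0.28) and at 72.1, 68.4 and 97.5 CPM in Tfr (0.47). Neither Eif2ak2 nor Isg20 reached 1.5-fold beyond both WT runs in either class. Of the OAS genes, which make the activator of RNase L, Oas1a passed the minimum in Tfr, and it shares over 51% of its 3′ end sequence with Oas1g. In the group acting on virus assembly and release, Bst2, the tether of budding virions also called tetherin, stood at 56.2, 53.8 and 64.2 CPM in Tfh (0.22) and at 64.5, 61.5 and 86.7 CPM in Tfr (0.46). Samd9l, a restriction factor of poxviruses, stood at 94.3, 89.9 and 81.2 CPM in Tfh (-0.18) and at 108, 104 and 104 CPM in Tfr (-0.03).

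The IFI200 family, DNA-binding proteins encoded side by side on chromosome 1 (GRCm38, 173468485 to 173942672), held the member called lower. Ifi208 stood at 40.4, 44.7 and 25.01 CPM in Tfr (log2 ratio -0.76), from 336, 605 and 382 UMIs, and was called lower. Outside Tfr subcluster 5 it was at 38.8, 42.4 and 21.3 CPM (-0.91) and was called lower there too. In Tfh it stood at 62.1, 64.4 and 43.3 CPM (-0.54), short of the rule. BKO Ifi208 was below both WT runs in 5 of 5 Tfr subclusters, for instance at 42.0, 44.8 and 18.7 CPM in subcluster 1, and in 5 of 6 Tfh subclusters. Its 3′ end shares 17.6% of its 60-base runs with Ifi213, which was at 43.4, 42.3 and 31.4 CPM in Tfr (-0.44), so both are uncertain. Ifi203, the most abundant of the family, stood at 244, 243 and 217 CPM in Tfh (-0.16) and at 268, 267 and 296 CPM in Tfr (0.15). Ifi209 stood at 127, 129 and 127 CPM in Tfh and at 151, 154 and 154 CPM in Tfr, with 44.8% of its 3′ runs shared with Ifi214. All 5 family members past the minimum had ratios below 0 in Tfh, and 3 of 5 in Tfr (all genes 4152 of 6559 and 4027 of 6539). Under TMM Ifi206 and Ifi209 were above 0 in Tfh and 2 of 5 were below 0 in Tfr. Inside Tfh subcluster 7, 3.46% of all genes were called higher and 10.3% lower. Ifi204, under the minimum in whole classes, was called higher there, from 11, 25 and 78 UMIs, and Ifi213 lower.

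The PARP9, DTX3L and PARP14 group, an ADP-ribosylating module tied to interferon signalling, had ratios below 0 for all 3 genes in Tfh, of which Dtx3l was above 0 under TMM. Over all genes past the minimum in Tfh, 4152 of 6559 had ratios below 0. Parp14 stood at 124, 117 and 101 CPM in Tfh (-0.25) and at 147, 138 and 138 CPM in Tfr (-0.05), and Parp9 at 64.1, 63.1 and 55.4 CPM (-0.20) and at 71.7, 70.5 and 69.1 CPM (-0.04). None was called. Of the Schlafens, which restrain T cell proliferation and viral translation, Slfn8 was called lower outside Tfh subcluster 7, at 48.1, 48.8 and 30.8 CPM (-0.64). In all Tfh cells it stood at 51.4, 52.4 and 34.8 CPM (-0.57) and in Tfr at 81.4, 89.0 and 75.2 CPM (-0.18), and 20.3% of its 3′ runs are shared with other Schlafen genes. Slfn1, linked to T cell quiescence, stood at 109, 105 and 117 CPM in Tfh and at 79.1, 74.6 and 79.1 CPM in Tfr. Slfn5 stood at 83.7, 81.4 and 91.5 CPM in Tfh and at 87.5, 90.4 and 81.4 CPM in Tfr, above both WT runs in BKO Tfh and below both in BKO Tfr.

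Among the other induced genes, Phf11b was above both WT runs in both classes. It stood at 67.5, 67.0 and 83.5 CPM in Tfh (0.31) and at 67.4, 70.1 and 93.8 CPM in Tfr (0.45). In Tfr subclusters 0 to 4 BKO Phf11b ran from 79.3 to 91.5 CPM. Its 3′ end shares 36.7% of its runs with Phf11a, Phf11c and Phf11d, so the copies cannot be told apart with certainty. Trim30a, which restrains Toll-like receptor signalling, stood at 154, 159 and 139 CPM in Tfh (-0.17) and at 177, 181 and 161 CPM in Tfr (-0.15), and with the intron length trend off its ratios were above 0, at 0.059 and 0.086. The remaining members of this group past the minimum ran from -0.14 to 0.24 in Tfh and up to 0.49 in Tfr on the log2 scale, leaving out Ifi27l2a.

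**Figure D4:**
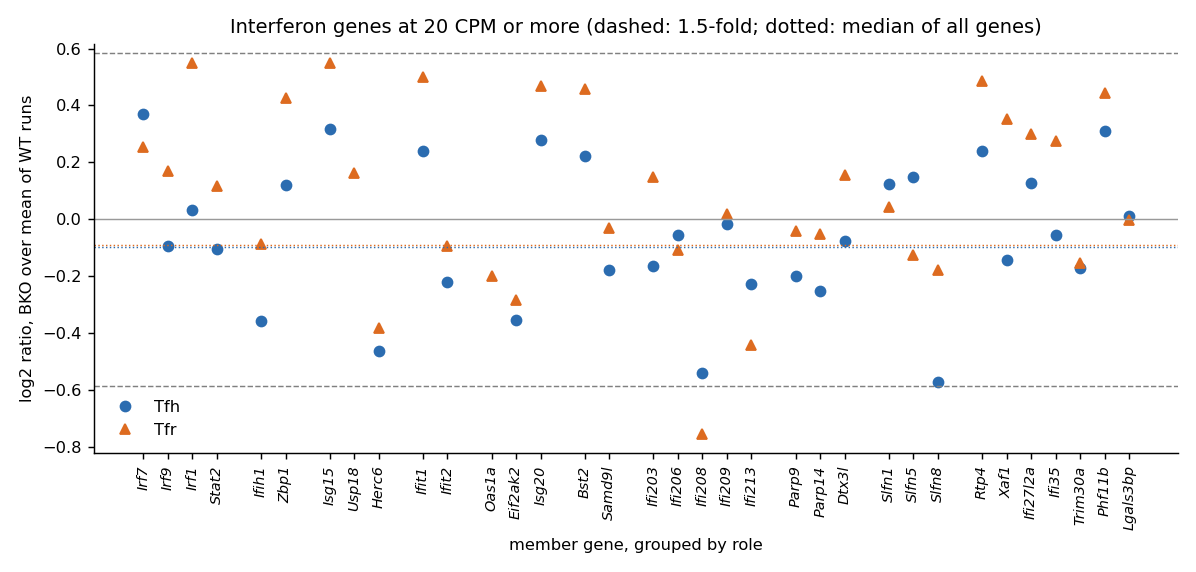
Log2 ratio of BKO over the mean of both WT runs (y axis) for members past the minimum of 20 CPM, grouped by role (x axis), with separate points for Tfh and Tfr. No point passes the 1.5-fold rule upward, and Ifi208 in Tfr, at -0.76, is the one that passes it downward.

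Inside Tfr subcluster 5, with 11, 12 and 32 cells, the members called higher were Ifit3, Oasl1, Cmpk2, Dtx3l and Ifi44, and those called lower Herc6, Oas1a and Oas3. At these cell numbers 11.2% of all genes were called higher and 19.7% lower, so these counts are not read as a result about the members. Herc6 was the single member called lower inside the interferon-high subcluster of both classes. In that of Tfh 10.3% of all genes were called lower, and the share of all genes called lower in both was not counted. The joint call is therefore not read as a result either.

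Over the members, levels in Tfr were more often above than below those in Tfh of the same sample. Of the 32 members with at least 20 CPM in both classes, 20 were higher in Tfr in all 3 samples and 2 were lower, Ifi208 and Slfn1. Of all 6310 genes past the minimum in both classes, 33.6% were higher in Tfr in all samples and 33.2% lower. The median log2 ratio of Tfr over Tfh was 0.11, 0.16 and 0.31. Eif2ak2 was 1.64, 1.80 and 1.80 times as high in Tfr, Slfn8 1.58, 1.70 and 2.16 times, Isg20 1.46, 1.52 and 1.70 times and Ifi27l2a 1.404, 1.42 and 1.59 times. Ifi208 was at 0.651, 0.693 and 0.577 times its Tfh level and Slfn1 at 0.727, 0.710 and 0.678 times. Outside the interferon-high subclusters 23 of 31 members were higher in Tfr in all samples. Tfh and Tfr of 1 library share their animals and droplets, so this was 1 comparison within each of 2 libraries, and the classes differ in their share of Foxp3-positive cells by construction.

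The ratios of members followed the length of their introns, as those of all genes did. In Tfh the 10 members with the shortest introns (0 to 6495 bases) had 9 ratios above 0 and a median of 0.17, and the 10 with the longest (21799 to 91801 bases) had 1 above 0 and a median of -0.22. In Tfr the 11 shortest (0 to 6916 bases) had 10 above 0 and a median of 0.30, and the 11 longest 2 above 0 and a median of -0.09. Isg15 (639 bases), Ifi27l2a (1051) and Bst2 (2299) are short, and Herc6 (74341), Ifih1 (42293) and Parp14 (29365) are long, while Rtp4, with 91801 bases, had a ratio of 0.24 in Tfh. Over members the Spearman correlation of ratio and intron length was -0.65 in Tfh and -0.57 in Tfr, and over 6555 and 6535 genes it was -0.67 and -0.63. The genotypes were counted with different Cell Ranger versions, which cannot be told apart from the genotype here. With the trend over all genes taken off, 10 of 32 members were above 0 in Tfh and 22 of 34 in Tfr. Ifi208 remained called lower in Tfr (all genes 0.719%) with Rtp4 called higher (all genes 1.1%). Besides Ifih1, Irf9 and Trim30a, taking the trend off turned the sign of Irf1 (-0.098), Ifi27l2a (-0.054) and Slfn1 (-0.011) in Tfh and of Parp9 (0.087), Parp14 (0.079), Samd9l (0.023) and Slfn1 (-0.13) in Tfr among the members named above. TMM turned the same Parp9 (0.073), Parp14 (0.065) and Samd9l (0.084) in Tfr, and Ifit2 there (0.018). This alternative was added after the first results of these data were known.

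**Figure D5:**
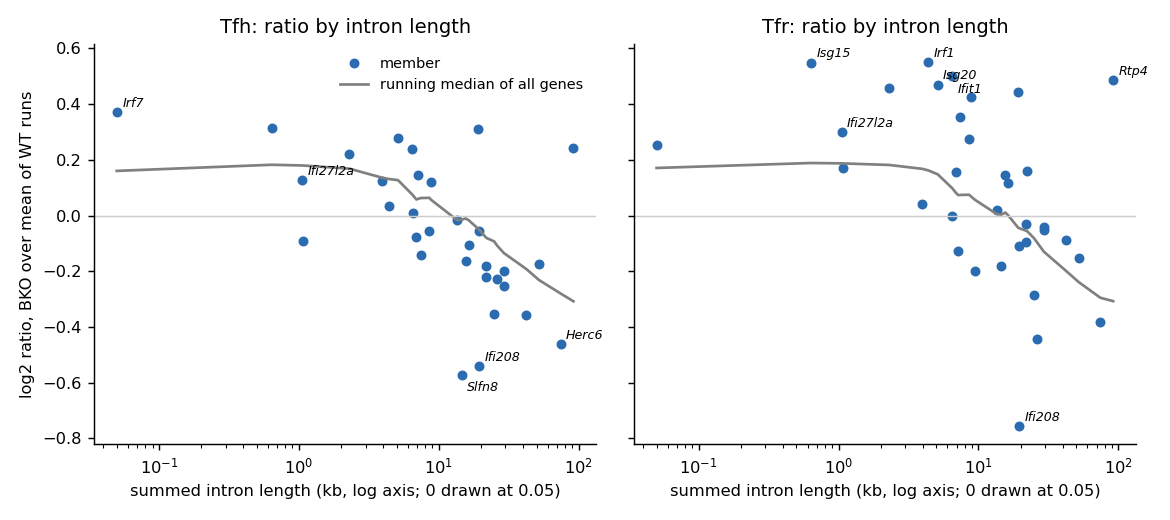
Log2 ratio of BKO over the mean of both WT runs (y axis) against the summed intron length of each gene (x axis, kilobases, log axis with 0 drawn at 0.05), with members as points over the trend of all genes, for Tfh and Tfr. Members with short introns lie mostly above 0 and those with long introns mostly below.

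Upstream genes of the pathway gave no call in Tfh as a whole. UMIs of Ifna1, Ifna2, Ifna4, Ifna5 and Ifnb1 were 0 in every sample, which allows up to 0.160, 0.100 and 0.0686 CPM in Tfh, and Ifng stood at 23.6, 23.3 and 23.8 CPM in Tfh. Inside Tfh subcluster 7 Ifng was called lower, at 35.5, 27.1 and 13.4 CPM from 10, 13 and 13 UMIs. The receptor chain Ifnar1 stood at 54.5, 52.7 and 42.0 CPM in Tfh (-0.35) and at 72.8, 70.8 and 59.0 CPM in Tfr (-0.28). Inside Tfh subcluster 7, where 10.3% of all genes were called lower, Ifnar1 was too, at 53.2, 52.0 and 31.9 CPM from 15, 25 and 31 UMIs. Ifnar2 stood at 149, 144 and 133 CPM and at 152, 151 and 140 CPM. Jak1 stood at 510, 492 and 431 CPM in Tfh (-0.22) and Tyk2 at 41.2, 42.1 and 31.0 CPM (-0.42). Of the receptors 4 of 6 passed the minimum in each class, with 0 called in Tfh (all genes 0.396% higher and 2.45% lower) and 1 called higher in Tfr (all genes 0.887% and 2.4%). That one was Ifngr1, a chain of the interferon-gamma receptor, at 45.6, 48.4 and 80.1 CPM (0.76). Ifngr1 was called lower in Tfh outside subcluster 7, at 26.9, 25.9 and 17.2 CPM (all genes 2.62%). Of the kinases and factors 7 of 9 passed, with 0 called in either class. Negative regulators gave 4 of 5 past the minimum and 0 called, and the sensing pathway 4 of 9 and 0 called. Inside Tfr subcluster 5, where 11.2% of all genes were called higher and 19.7% lower, Irf3, Irf8, Socs1, Ptpn2 and Ifngr1 were called higher and Tlr7 lower, each from at most 33 UMIs in a sample.

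A list of other interferon-induced genes, many of which interferon-gamma also induces, gave calls in both classes. Of 30 listed, 23 passed the minimum in Tfh, with 2 called higher and 0 lower and a median log2 ratio of -0.06, and 25 in Tfr, with 4 higher and 1 lower and a median of 0.19. Of all genes 0.396% were called higher and 2.45% lower in Tfh, and 0.887% and 2.4% in Tfr. Outside Tfh subcluster 7, 20 passed, with Ly6a called higher (all genes 0.381%) and Cxcl10 under the minimum at 7.64, 10.1 and 27.8 CPM. The chemokine gene Cxcl10 was called in both classes and stood at 135, 137 and 611 CPM inside Tfh subcluster 7. Ly6a, encoding the surface protein Sca-1, was called in both and stood at 937, 764 and 947 CPM inside Tfh subcluster 7. In Tfr the GTPase genes Igtp, at 38.1, 38.2 and 63.8 CPM (0.73), and Iigp1, at 60.1, 68.7 and 120 CPM (0.89), were called higher, and Ifitm2, at 40.4, 35.5 and 21.9 CPM (-0.78), lower. Each list is given by its counts, and no difference between this list and the members was tested.

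The BKO matrix also held barcodes without cells, whose RNA is taken to be free RNA of the suspension. In 907649 barcodes with 1 to 50 UMIs, members stood at 4317 CPM (4219 to 4418), which is 95.9% of the 4502 CPM in annotated BKO cells. Without Ifi27l2a the members stood at 2047 CPM in these barcodes and at 2314 CPM in cells (88.5%). Isg15 was at 103 CPM in the barcodes against 98.9 CPM in cells, and Ifit3 at 8.89 against 10.2 CPM. The part of free RNA in the levels outside the interferon-high subclusters was not tested. For Ifit1, 2.95 to 3.22% of thinned Tfh cells outside subcluster 7 had a UMI, against 70.2 to 72.5% inside, and before thinning the shares were 5.23 to 7.48% and 83.9 to 88.8%. All cell types here can express these genes, so no type served as a background.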

How the data were processed

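UMI counts per gene and barcode were deposited by the authors for the 3 samples, made with Cell Ranger on mm10 per the submitters' processing notes, with cellranger 7.0.1 for WT and Cell Ranger 4 for BKO per the file headers. No doublet caller was run, and the labels do not say what the authors did about doublets. Cells, classes and subcluster numbers came from the authors' deposited tables, matched by barcode. These hold cells under 4000 genes and under 10% mitochondrial UMIs. The count totals were 32518538 UMIs for WT run 1, 54059000 for WT run 2 and 85225125 for BKO. Of 5068 cells annotated in both WT runs, 527 were in different classes.

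Member UMIs were summed by sample, class and subcluster and scaled to the total of those cells. The rule of size (at least 20 CPM, 1.5-fold beyond both WT runs) was fitted over all genes, in place of a count test, because the WT runs are of the same cells. Intervals are exact Poisson and Clopper-Pearson at 95%, and a count of 0 allows 3 counts. PCR duplicates are collapsed by UMIs, and intervals cover counting error only. Cells were thinned to 2500 UMIs (seed 11), which left out 189, 56 and 65 Tfh cells outside subcluster 7. Intron length is the span of a gene free of exons in GENCODE vM21 (GRCm38, the assembly of mm10). Promoters are from RefSeq, and a 3′ end is called shared where a 60-base run of the last 500 bases is found in another gene.

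Members named with full values are the 2 of highest level per role, those past the rule and the 3 highest and 3 lowest ratios per class, and others were named after their values were seen. The members and lists were chosen with earlier results of these data known. Alternatives were another normalization (TMM of edgeR 4.0.16 in R 4.3.3), other minimums, folds and pseudocounts, leaving out a WT run or abundant genes, cells of the same class in both runs, and equal make-up of subclusters. Python 3.11.15, numpy 2.4.6, pandas 2.3.3, scipy 1.17.1, matplotlib 3.10.9 and biopython 1.88 were used. The rule was tested on simulated counts that held counting error only. Differences between libraries or Cell Ranger versions were not simulated, so false calls from them were not measured.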

Additional observations from a re-analysis of the deposited data

Results flagged for a closer look

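In 7 of 32 members past the minimum in both classes, BKO lay beyond both WT runs in opposite directions in Tfr and Tfh. The log2 ratio in Tfr minus that in Tfh was 0.26 for Irf9, 0.31 for Ifi203, 0.036 for Ifi209, 0.23 for Dtx3l, 0.49 for Xaf1 and 0.33 for Ifi35, all higher in BKO Tfr and lower in BKO Tfh. Slfn5 went the other way, with a difference of -0.27. Of all 6310 genes past the minimum in both classes, 431 (6.83%) lay beyond both WT runs in opposite directions. With library sizes scaled by TMM, Irf9, Ifi209, Dtx3l, Xaf1 and Ifi35 were above 0 in both classes, and with the intron length trend off Irf9 was at -0.018 in Tfr. These differences were not tested, since each genotype is 1 library.

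Barcodes of the BKO matrix with 1 to 50 UMIs, which are in no cell table, held 7281 member UMIs.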

How the results depend on the processing

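No paired analysis was possible because each genotype is 1 library, and the WT samples are runs of the same cells. The log2 ratios of the summed members (0.02 in Tfh, -0.02 outside subcluster 7, 0.20 in Tfr, 0.16 outside subcluster 5) were 0.18, 0.14, 0.31 and 0.28 under TMM, which raised all ratios by 0.16 in Tfh and 0.12 in Tfr. In the same order they were -0.052, -0.097, 0.10 and 0.067 with the intron length trend taken off, -0.041, -0.11, 0.10 and 0.041 without the 3 most abundant members, and -0.063, -0.12, 0.089 and 0.035 without Ifi27l2a. They were 0.046, 0.0069, 0.18 and 0.15 over cells of the same class in both WT runs, and -0.037, -0.041, 0.038 and 0.038 at the WT make-up of subclusters. With cells over 4000 genes put back the Tfr value was 0.12. The cause was not tested. Leaving out either WT run gave 0.019 to 0.025, -0.023 to -0.016, 0.188 to 0.206 and 0.155 to 0.174. It gave shares of cells in the interferon-high subcluster of 1.35 to 1.396 times WT in Tfh and 1.89 to 2.02 in Tfr, and shares of member UMIs of 1.399 to 1.44 and 1.74 to 1.79 times. Member UMIs per thinned cell were then 0.918 to 0.947 times WT inside Tfh subcluster 7 and 0.906 to 0.916 outside, and 0.997 to 1.00 and 1.01 to 1.03 in Tfr. Without Ifi27l2a the UMI share was 1.81 times WT in Tfr, and with it the UMIs per cell were 0.986 and 0.975 times WT in Tfh and 1.11 outside Tfr subcluster 5. Members called higher in Tfh numbered 1 at the lower fold threshold tried (Irf7). Those called lower in Tfh numbered 1 without WT run 1 (Slfn8) and 4 at the lower fold threshold tried (Ifih1, Herc6, Ifi208, Slfn8). In Tfr the number called higher was 2 under TMM (Irf1, Isg15), 1 without WT run 2 (Ifit1), 1 at a minimum of 5 CPM, 3 with no minimum, 9 at the lower fold threshold tried and 1 with the trend off (Rtp4), and the number called lower was 0 under TMM, 3 at the lower fold threshold tried and 0 at 2-fold. Over all genes TMM called 63 higher and 83 lower in Tfh and 104 and 74 in Tfr, against 26 and 161, and 58 and 157, and with the trend off 34 and 84, and 72 and 47. The lower fold threshold called 2.21% of all genes higher and 15.9% lower in Tfh, and 4.74% and 17% in Tfr. In Tfr a minimum of 5 CPM called 1.4% of all genes higher, no minimum 6.73%, and leaving out WT run 2 1.46%. In Tfr 2-fold called 0.214% lower, and in Tfh leaving out WT run 1 called 2.54% lower.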
